A study of Mus musculus with 7 samples.

Results

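Id2, Id3, Tcf3 and Tcf4 are 4 of the 12092 gene symbols measured by RNA-Seq in DP (double-positive, CD4+ CD8+) thymocytes, a stage of T cell development between pre-TCR and TCR selection. They were taken by symbol and had 1 entry each. Id2 and Id3 are helix-loop-helix proteins without the basic region that contacts DNA. They bind to E proteins, which are basic helix-loop-helix transcription factors, and the resulting pair cannot bind the E-box, the short motif CANNTG through which E proteins act. Tcf3 encodes E2A, with its splice forms E12 and E47, and Tcf4 encodes E2-2, the E protein best known for plasmacytoid dendritic cells. In the thymus, E proteins act together with signals of the pre-TCR and the TCR at each selection step, and those signals raise Id3 through Egr factors. The third E protein of thymocytes, HEB (Tcf12), and the Id proteins Id1 and Id4 were not analysed here.

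Thymocytes were sorted as TCRγδ- CD4+ CD8+ at an age of 4 to 5 weeks by the labels, while the study's methods give 5 weeks. Its results describe the DP cells of L-DKO pTα-/- mice as also CD1d tetramer-negative, a gate that leaves out invariant NKT cells. The methods do not list that gate for these libraries. The mice were littermates and hybrids (B6/129), and each library came from 1 of them. In L-DKO mice both Id genes are floxed (Id2 f/f and Id3 f/f) and deleted by LckCre, and LP mice are L-DKO mice that by their labels also lack pTα (pTα-/-). LP and L-DKO gave 2 libraries each, and pTαKO mice (labelled pTα-/-, with both Id genes intact) and WT mice gave 1 each. The other pTαKO sample, replicate 1, had failed in sequencing quality and was not analysed here. LP and L-DKO are called Id-deleted below, and pTαKO and WT Id-intact. Cre is driven by the Lck promoter and so acts from an early stage of the T lineage, while pTα-/- is not tied to a Cre. The pre-TCR consists of pTα, encoded by Ptcra, and a newly made TCR beta chain. Ptcra itself had log2(FPKM + 1) levels of 5.35 and 5.87 in LP mice, 6.35 and 6.62 in L-DKO mice, 5.75 in pTαKO and 5.06 in WT, so it was no lower in the 3 libraries labelled as lacking pTα than in WT. Which part of Ptcra the allele removes is not given in the sources used here, so this transcript does not check those labels, and LP and pTαKO are names taken from the labels in every comparison that follows. Whether the WT and pTαKO littermates carried floxed alleles, and which part of Id2 and Id3 the Cre removes, is not given in the sources used here.

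Levels are given in FPKM, a count of fragments scaled to transcript length and library size, and differences on the log2(FPKM + 1) scale. Of 12 DP thymocyte markers 9 were measured, none was at 0 in any library, and their summed FPKM lay between 3640 and 4142. The libraries differed in how much of all FPKM their 20 most abundant entries held, 53.5% and 72.6% in LP mice, 62.2% and 62.3% in L-DKO mice, 58.9% in pTαKO and 30.0% in WT. Rescaling to the remaining entries shifted the median gene of a library by between -0.16 and 0.16 (log2). Sets of macrophage markers (9 of 10 measured) summed to 69.4 and 75.8 FPKM in LP mice, 35.6 and 28.8 in L-DKO mice, 266 in pTαKO and 24.9 in WT. The pTαKO library, 1 of the 2 Id-intact libraries, held the most macrophage transcripts.

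The regions upstream of the Id genes are shown first, because the E-box is the motif that E proteins bind and that Id proteins keep them from. The Id2 gene is on the minus strand of chromosome 12, at 25093799 to 25096092, and Id3 on the plus strand of chromosome 4, at 136143822 to 136145392. Positions and sequences are RefSeq's for GRCm38.p6. Each sequence is the 250 bases before the start of each gene, chr12:25096093-25096342 for Id2 and chr4:136143572-136143821 for Id3, written 5′ to 3′ on the strand of the gene, with any match to CANNTG in capitals.
Id2: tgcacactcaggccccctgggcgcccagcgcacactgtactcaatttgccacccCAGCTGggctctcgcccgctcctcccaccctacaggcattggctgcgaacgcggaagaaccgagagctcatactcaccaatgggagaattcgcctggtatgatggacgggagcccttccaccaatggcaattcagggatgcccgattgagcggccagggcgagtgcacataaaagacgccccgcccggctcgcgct
Id3: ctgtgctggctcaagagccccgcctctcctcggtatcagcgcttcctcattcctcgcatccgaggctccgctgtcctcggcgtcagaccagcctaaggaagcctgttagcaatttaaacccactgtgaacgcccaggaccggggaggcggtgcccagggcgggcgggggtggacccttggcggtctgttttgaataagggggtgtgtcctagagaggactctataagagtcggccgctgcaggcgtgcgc
The Id2 region held 1 match, CAGCTG, from 196 to 191 bases before the start, while the Id3 region held 0. A window of this length held CANNTG in 66.2% of 32851 promoters and CAGCTG in 13.0%, so a match of the first kind is common. The motif of Egr factors, GCGNGGGCG on either strand, was found in 4.70% of promoters and 0 times in the windows of Id2 and Id3. A match is a string of letters, and binding was not measured in these libraries.

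The first question was how far the deletion showed in the Id transcripts themselves. Id3, the main Id gene of DP thymocytes, stood at 2.88 and 8.06 FPKM in LP mice and at 2.76 and 8.99 FPKM in L-DKO mice, against 37.0 FPKM in pTαKO and 73.6 FPKM in WT. All 4 Id-deleted libraries lay below both Id-intact libraries. Relative to WT, LP kept 3.91% and 11.0% of the Id3 level and L-DKO 3.75% and 12.2%. Relative to pTαKO, the LP libraries kept 7.78% and 21.8%. On the log2 scale, Id-deleted minus Id-intact was -3.14 ± 0.56 (SE), which did not pass the limma test over 12063 genes (adjusted p = 0.412, unadjusted p = 0.00261). An exact two-sided permutation test over the 6 libraries gave p = 0.0667 for Id3, the smallest value that 4 against 2 libraries allow.

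Id2 was measured at a far lower level than Id3 in the Id-intact libraries. It stood at 2.80 and 0.992 FPKM in LP mice and at 0.997 and 0.184 FPKM in L-DKO mice, against 2.65 FPKM in pTαKO and 10.8 FPKM in WT. The groups overlapped, because LP replicate 1 lay above pTαKO. Relative to WT, the level was 26.0% and 9.22% in LP mice, 9.26% and 1.71% in L-DKO mice, and 24.6% in pTαKO, where both Id genes were intact. The log2 difference of Id-deleted minus Id-intact was -1.67 ± 0.46 (limma adjusted p = 0.702), and the exact permutation test gave p = 0.133. It was -0.83 without WT and -2.52 without pTαKO, so each of these single libraries moved it by more than 1.5 times. In bulk samples such as these, fewer cells with a transcript and less of it in each cell cannot be told apart. The table gives 1 value per gene, so fragments of exons that stay after deletion and fragments from cells that kept the gene cannot be told apart either.

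Each Id-deleted genotype was then set against its own control. With pTα present by the labels, L-DKO minus WT came to -2.94 ± 0.66 in Id2 (limma adjusted p = 0.956) and to -3.61 ± 0.79 in Id3 (adjusted p = 0.928). In the libraries labelled as lacking pTα, LP minus pTαKO was -2.68 ± 0.79 for Id3 (adjusted p = 0.744) but -0.41 ± 0.66 for Id2 (adjusted p = 0.949). Without LP replicate 2 the Id2 value turned to 0.055. The interaction, which subtracts the difference with pTα from that without pTα, was 2.53 ± 0.93 for Id2 and 0.92 ± 1.11 for Id3, and neither passed (adjusted p = 0.996 for both). For Id3, leaving out LP replicate 1 gave 1.54 and LP replicate 2 gave 0.31, while leaving out L-DKO replicate 1 gave 0.22 and L-DKO replicate 2 gave 1.63.

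**Figure D1:**
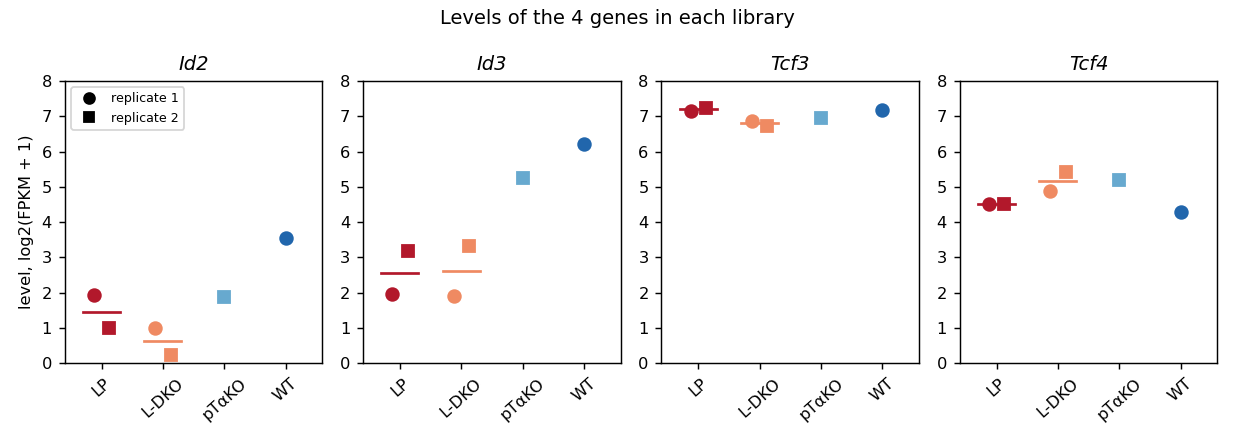
Levels of Id2, Id3, Tcf3 and Tcf4 in the 6 libraries, as log2(FPKM + 1) on a common vertical axis, for LP, L-DKO, pTαKO and WT. Circles are replicate 1, squares replicate 2, and bars the means of the groups with 2 libraries. All 4 Id-deleted points of Id3 lie below 37.0 FPKM in pTαKO and 73.6 FPKM in WT, whereas Tcf3 stays between 105 and 150.5 FPKM throughout.

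The plot of levels by library shows a further feature of the Id genes. In both Id-deleted groups, replicate 1 had more Id2 and less Id3 than replicate 2. The ratio of Id3 to Id2 FPKM was 1.03 and 8.13 in LP mice, 2.77 and 48.9 in L-DKO mice, 14.0 in pTαKO and 6.84 in WT. It differed more within LP and within L-DKO than between pTαKO and WT. The ratios in LP and L-DKO divide by low Id2 levels, down to 0.184 FPKM in L-DKO replicate 2, at the 3.73 percentile of that library. With depth unknown, this spread cannot be told apart from noise near the floor. The LP and L-DKO libraries overlapped in Id3, and in Id2, where LP replicate 2 lay just below L-DKO replicate 1. LP minus L-DKO was 0.84 ± 0.54 for Id2 (limma adjusted p = 0.610) and -0.05 ± 0.64 for Id3 (adjusted p = 0.985). The Id2 value was 0.37 without LP replicate 1, 0.46 without L-DKO replicate 2, 1.30 without LP replicate 2 and 1.67 with 0.1 in place of 1 added to the FPKM. The Id3 value turned to 0.56 without LP replicate 1 and to 0.66 without L-DKO replicate 2.

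Cells that express Id2 at high level outside the DP stage include NK and innate lymphoid cells, dendritic cells and macrophages. Of 10 NK and innate lymphoid markers 3 were measured, and their sums were 188 and 149 FPKM in LP mice, 52.8 and 52.8 FPKM in L-DKO mice, 61.7 FPKM in pTαKO and 24.8 FPKM in WT. Nearly all of each sum came from Gzma, which is also on the list of E protein targets below. Klrd1, a receptor chain of NK cells, was at 0 in L-DKO replicate 2, pTαKO and WT. For conventional dendritic cells 4 of 10 markers were measured, none of them at 0, with sums of 67.5 and 45.3 FPKM in LP mice, 14.9 and 18.9 FPKM in L-DKO mice, 264 FPKM in pTαKO and 41.6 FPKM in WT. The 4 were H2-Aa, H2-Ab1, Cd74 and Ccr7. Nearly all of the pTαKO sum came from H2-Aa, H2-Ab1 and Cd74. Ccr7, also on the list of E protein targets below, was lowest in pTαKO, with a log2(FPKM + 1) level of 1.47 against 1.49 in WT. The WT library, with the highest Id2 level, had the lowest sums of macrophage and NK markers. Its sum of dendritic cell markers (41.6 FPKM) lay above both L-DKO libraries and below both LP libraries. The part of these cells in the Id2 levels of LP and pTαKO was not tested.

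The genes whose levels ran most like those of the Id genes were found by Pearson correlation over the 6 libraries, among 3627 named genes with a mean of at least 1 FPKM and a range of at least 1 (log2). All libraries of a genotype enter this measure, so the values are a description. For Id3 they were Nrtn (r = 0.99), Dzip3 (0.98), Lypd6b (0.97), Fsbp (0.96) and Acpp (0.96). For Id2 they were Wdr73 (r = 0.95), Gimap1os (0.94), Fuz (0.93), Foxd2os (0.93) and Plxna3 (0.92). Nrtn, which encodes the growth factor neurturin, had log2(FPKM + 1) levels of 1.21 and 1.58 in LP mice, 1.13 and 1.93 in L-DKO mice, 2.77 in pTαKO and 3.04 in WT, the same order of libraries as Id3 (Spearman rho = 1). The share of the 3627 genes with that order was not counted, so a shared order is no evidence of a link.

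The genes next to the deleted loci were also read. Of the 10 tested genes nearest to Id3, 5 on each side, Id-deleted minus Id-intact ranged from -0.35 to 0.71 with a median of 0.14, and in limma 0 were called, with 0 at an unadjusted p under 0.05. For the 10 nearest to Id2 the range was -0.50 to 0.36, the median 0.09 and both counts 0. E2f2, a cell cycle factor gene next to Id3, had log2(FPKM + 1) levels of 7.05 and 7.08 in LP mice, 7.63 and 7.67 in L-DKO mice, 7.10 in pTαKO and 7.26 in WT. Kidins220, next to Id2, stood at 5.31 and 5.21 in LP mice, 5.16 and 4.99 in L-DKO mice, 5.16 in pTαKO and 4.98 in WT. Of the 10 neighbours of Id3, 0 were lower in all Id-deleted libraries than in both Id-intact ones, and of the 10 neighbours of Id2, 1 was (Rnf144a), against 5.87% of all tested genes. In the other direction, 2 neighbours of Id3 (Zfp46 and Hnrnpr) and 0 of Id2 were higher without overlap, against 6.94% of all tested genes.

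The second question was whether the E protein genes differed once their inhibitors were deleted. Tcf3 (chromosome 10, 80409541 to 80433976) was among the more abundant genes, between the 91.1 and the 94.9 percentile of each library. It stood at 142 and 150.5 FPKM in LP mice and 116 and 105 FPKM in L-DKO mice, against 124 FPKM in pTαKO and 143 FPKM in WT. The Id-deleted and Id-intact libraries overlapped, with a log2 difference of -0.07 ± 0.12 (limma adjusted p = 0.961) that turned to 0.036 without WT. Its SE was the smallest of the 4 genes.

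Tcf4 (chromosome 18, 69343429 to 69687967) lay between the 57.1 and the 77.1 percentile. It stood at 22.1 and 21.7 FPKM in LP mice and 28.6 and 42.3 FPKM in L-DKO mice, against 35.4 FPKM in pTαKO and 18.5 FPKM in WT. These groups overlapped as well, with a log2 difference of 0.10 ± 0.21 (limma adjusted p = 0.964) that turned to -0.35 without WT and to -0.03 without L-DKO replicate 2. Thus 0 of the 4 genes passed the limma test of Id deletion, against 0.0829% of all tested genes. At an unadjusted p under 0.05 there were 2 of the 4, Id2 and Id3, against 6.49% of all tested genes. Furthermore, 1 of the 4, Id3, was lower without overlap, against 5.87% of all tested genes lower and 6.94% higher in this way. Id2 and Id3 are the deleted genes, so both counts check the deletion and say nothing of the E protein genes. The exact permutation p was 0.667 for Tcf3 and 0.8 for Tcf4.

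Summed over both E protein genes, the level was nearly the same in all libraries, whereas the sum of both Id genes was not. Tcf3 plus Tcf4 came to 164 and 172 FPKM in LP mice and 145 and 147 FPKM in L-DKO mice, against 159 FPKM in pTαKO and 161 FPKM in WT. Id2 plus Id3 came to 5.68 and 9.06 FPKM in LP mice and 3.76 and 9.18 FPKM in L-DKO mice, against 39.7 FPKM in pTαKO and 84.4 FPKM in WT. The ratio of E protein to Id transcripts was therefore 28.8 and 19.0 in LP mice and 38.5 and 16.1 in L-DKO mice, against 4.01 in pTαKO and 1.91 in WT. On the log2 scale, with 1 FPKM added to each sum, the ratio averaged 4.38 ± 0.49 in Id-deleted libraries (SD, n = 4) and 1.45 ± 0.74 in Id-intact libraries (SD, n = 2), a difference of 2.93. The exact two-sided permutation test gave p = 0.0667, the smallest possible. The deleted genes form the denominator of the ratio, so this test repeats the separation of Id3 and is no separate evidence. It also pools L-DKO with LP and pTαKO with WT. Such a ratio is taken within a library, so scaling between libraries hardly moves it, and it counts transcripts of 4 genes rather than protein.

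**Figure D2:**
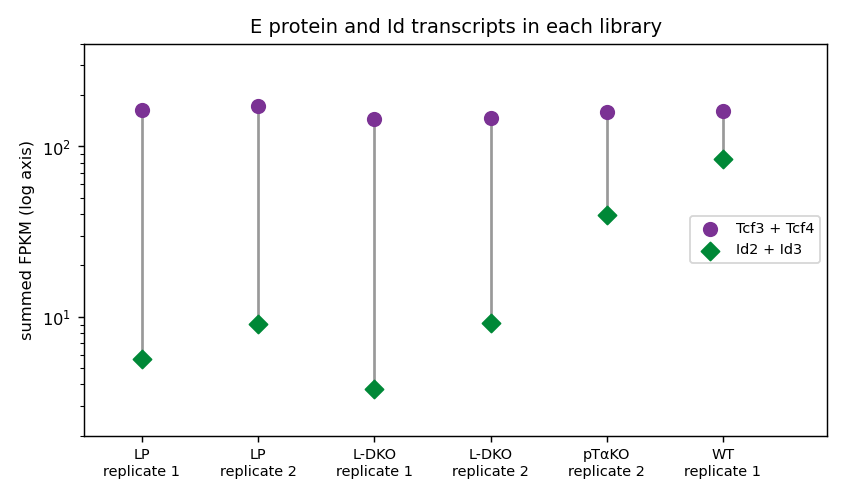
Summed FPKM of Tcf3 and Tcf4 (purple circles) and of Id2 and Id3 (green diamonds) in each library, on a log axis, with a line joining both sums of a library. The E protein sums lie between 145 and 172 FPKM in all 6 libraries, and the Id sums between 3.76 and 9.18 FPKM in LP and L-DKO mice, below 39.7 FPKM in pTαKO and 84.4 FPKM in WT.

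In the plot of both sums the pTαKO and WT libraries are set apart by their Id transcripts, at nearly equal E protein transcripts. With 1 library each, the difference between pTαKO and WT has no replicate check: Id3 in pTαKO was 50.3% of its WT level and Id2 24.6%. From low to high, the Id3 levels ran through L-DKO replicate 1, LP replicate 1, LP replicate 2, L-DKO replicate 2, pTαKO and WT. LP and L-DKO were interleaved in that order and did not differ beyond their spread.

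The third question was how LP and L-DKO, which differ by the label of pTα loss, compared with both Id genes deleted. LP and L-DKO separated in both E protein genes, in opposite directions. For Tcf3 both LP libraries (142 and 150.5 FPKM) lay above both L-DKO libraries (116 and 105 FPKM), and the log2 difference was 0.40 ± 0.13. For Tcf4 both LP libraries (22.1 and 21.7 FPKM) lay below both L-DKO libraries (28.6 and 42.3 FPKM), and the log2 difference was -0.64 ± 0.24, with -0.92 when L-DKO replicate 1 was left out and -0.37 when replicate 2 was. Neither passed in limma (adjusted p = 0.414 for Tcf3 and 0.442 for Tcf4), and the share of all tested genes called in this comparison was 0.0166%. Groups without overlap were common here, since LP was higher in this way in 22.3% of all tested genes and lower in 22.2%.

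Each E protein gene also lay on opposite sides of its control with and without pTα. In Tcf3, both LP libraries were above pTαKO, with LP minus pTαKO at 0.24 ± 0.17 (limma adjusted p = 0.890), and both L-DKO libraries were below WT, with L-DKO minus WT at -0.37 ± 0.17 (adjusted p = 0.999). In Tcf4, both LP libraries were below pTαKO, at -0.67 ± 0.30 (adjusted p = 0.809), and both L-DKO libraries were above WT, at 0.88 ± 0.30 (adjusted p = 0.999). The interaction was 0.60 ± 0.23 for Tcf3 and -1.55 ± 0.42 for Tcf4, and neither passed (adjusted p = 0.996 for both). This held for 2 of the 4 genes, against 19.9% of all tested genes, and each control was a single library. The shares of all tested genes called in limma were 0.0414% for L-DKO and WT, 0.0995% for LP and pTαKO, and 0.0497% for the interaction, and 0 of the 4 genes were among them. At an unadjusted p under 0.05 there were 3 of the 4 in L-DKO and WT, 1 in LP and pTαKO, 2 in LP and L-DKO and 2 in the interaction, against 4.34%, 6.19%, 11.1% and 4.46% of all tested genes. Those in L-DKO and WT were Id2, Id3 and Tcf4, and the one in LP and pTαKO was Id3. Id2 and Id3 are the deleted genes, so their place in these counts checks the deletion and says nothing of the E protein genes.

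**Figure D3:**
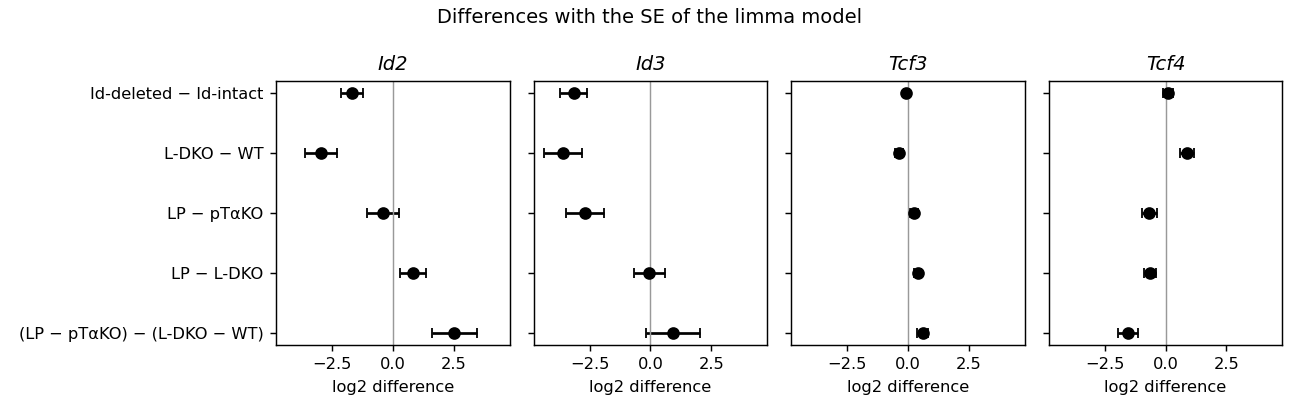
Differences of log2(FPKM + 1) for Id2, Id3, Tcf3 and Tcf4, with bars of 1 SE of the limma model, in 5 comparisons from top to bottom. Id3 lies left of 0 in the upper 3 comparisons (-3.14, -3.61 and -2.68), while Tcf3 and Tcf4 change sign between L-DKO minus WT and LP minus pTαKO. None of these values passed the test.

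The plot of differences shows that the SE of Tcf3 is small beside those of the Id genes. Tcf3 and Tcf4 ran in opposite order over most of the libraries. The ratio of Tcf3 to Tcf4 FPKM was 6.41 and 6.94 in LP mice and 4.06 and 2.49 in L-DKO mice, against 3.50 in pTαKO and 7.73 in WT. Tcf4 thus made up 13.5% and 12.6% of both E protein transcripts in LP mice, 19.8% and 28.7% in L-DKO mice, 22.2% in pTαKO and 11.5% in WT. The 3 LP and WT libraries had the lowest shares of Tcf4, and the 3 L-DKO and pTαKO libraries the highest.

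**Figure D4:**
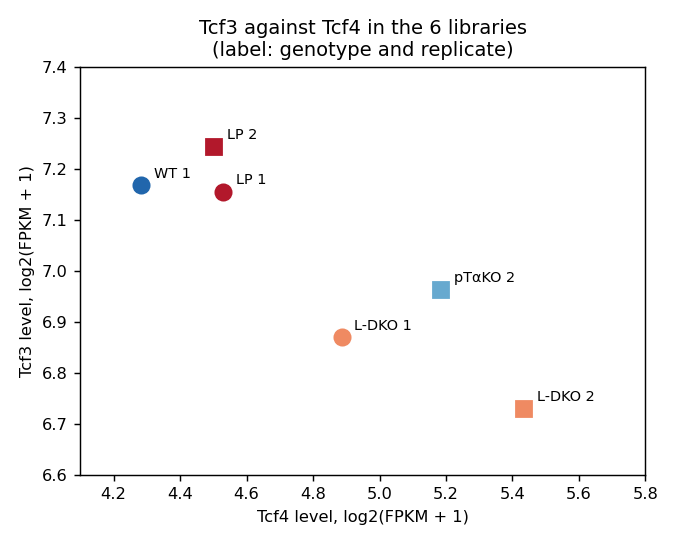
Tcf3 against Tcf4, both as log2(FPKM + 1), with 1 point for each of the 6 libraries, labelled by genotype and replicate. LP and WT sit at the upper left and L-DKO and pTαKO at the lower right, and the axes do not start at 0.

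The plot of Tcf3 against Tcf4 spans a smaller range on the log2(FPKM + 1) scale in Tcf3 (6.73 to 7.24) than in Tcf4 (4.28 to 5.44). Plasmacytoid dendritic cells express Tcf4 at high level. Of 10 of their markers 9 were measured, and the sums were 691 and 666 FPKM in LP mice, 642 and 715 FPKM in L-DKO mice, 868 FPKM in pTαKO and 684 FPKM in WT. Most of each sum came from Ly6d, Ccr9 and Bst2, and thymocytes also use the chemokine receptor Ccr9. Siglech, a surface lectin particular to these cells in mice, had log2(FPKM + 1) levels of 1.42 and 0.67 in LP mice, 0.57 and 0.25 in L-DKO mice, 2.33 in pTαKO and 0.33 in WT. Other markers of the list ran otherwise. Spib stood at 3.14 and 3.82 in LP mice, 2.54 and 1.95 in L-DKO mice, 3.70 in pTαKO and 0.80 in WT. Pacsin1 was lowest in pTαKO (1.68), with 3.73 and 3.16 in LP mice, 3.96 and 3.18 in L-DKO mice and 3.05 in WT. Cox6a2, a marker used mainly for these cells, was at 0 in LP replicate 2 and L-DKO replicate 2, the library with the highest Tcf4 level, and Runx2 was at 0 in LP replicate 2. Cox6a2 was highest in WT (1.62), the library with the lowest Tcf4 level. B cell markers, of which 3 of 10 were measured and none was at 0, summed to between 20.8 FPKM in WT and 47.0 FPKM in pTαKO. The part of such cells in the Tcf4 level of pTαKO was not tested.

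The genes most like Tcf3 over the 6 libraries were Rsl1 (r = 0.99), Ngrn (0.98), Hist1h2bj (0.97), Tceal8 (0.97) and Mtmr10 (0.97). Those most like Tcf4 were Hist1h4b (r = 1.00), Ube2e2 (0.99), Slc25a15 (0.98), Akap9 (0.98) and Prmt5 (0.97), each with the order of libraries of Tcf4 itself (Spearman rho = 1). They are the highest of 3627 genes over only 6 libraries. How many of all these genes had that order was not counted, so it is no evidence of a link. Prmt5, an arginine methyltransferase, had log2(FPKM + 1) levels of 5.38 and 5.34 in LP mice, 5.65 and 6.05 in L-DKO mice, 6.01 in pTαKO and 4.89 in WT. Ngrn stood at 4.75 and 4.99 in LP mice, 4.17 and 3.94 in L-DKO mice, 4.54 in pTαKO and 4.72 in WT.

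The genes around the Id and E protein pathway were read by role, and levels in what follows are log2(FPKM + 1). The list called inducers of Id genes held Egr factors, BMP and TGF-β receptors, Smads and Notch1 among others. It also held the Nab corepressors of Egr factors, which are not inducers, so its medians and counts mix both roles. Of its 18 genes, 13 were tested. For Id-deleted minus Id-intact, 0 were called in limma, 1 had an unadjusted p under 0.05 (6.49% of all tested genes did), and 0 separated without overlap. Of all tested genes, 6.94% were higher and 5.87% lower without overlap. The median difference was 0.14, beside 0.005 over all tested genes. This median was 0.003 without pTαKO, -0.07 without WT and -0.06 among genes with a mean of at least 5 FPKM. Egr1, which links TCR signals to Id3, stood at 4.79 and 4.27 in LP mice, 5.60 and 5.22 in L-DKO mice, 3.0 in pTαKO and 5.06 in WT. LP minus L-DKO of Egr1 was -0.88 ± 0.27 (limma adjusted p = 0.38), with no overlap. Its corepressors Nab1 (-0.95 ± 0.29) and Nab2 (-0.69 ± 0.35) were also lower in LP without overlap, and Notch1 (2.38 ± 0.38) and Smad3 (0.41 ± 0.21) were higher. None of these 5 passed, and 3 of the 13 had an unadjusted p under 0.05, against 11.1% of all tested genes. In LP minus L-DKO, 22.3% of all tested genes were higher and 22.2% lower without overlap. The median of the 13 was -0.02, beside 0.001 over all tested genes, and 0.23 without L-DKO replicate 1. The value of Nab2 was -0.25 without LP replicate 2 and -1.13 without LP replicate 1, and that of Smad3 0.19 without LP replicate 1 and 0.63 without LP replicate 2.

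Egr2 and Egr3, the other Egr factors measured, overlapped between LP and L-DKO. Egr2 stood at 3.47 and 2.96 in LP mice, 3.42 and 3.94 in L-DKO mice, 2.2 in pTαKO and 3.90 in WT. Egr1, Egr2 and Egr3 were each lowest in the pTαKO library, which also had less Id3 than WT. That pTαKO value rests on 1 library, the one with the highest sums of the macrophage and dendritic cell marker lists. The part of such cells in it was not tested.

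Of cofactors that act with E proteins, 13 of 15 were tested, and limma called 0 in any of the 5 comparisons. At an unadjusted p under 0.05 there were 0 in Id-deleted minus Id-intact and 2 in LP minus L-DKO, against 6.49% and 11.1% of all tested genes. For Id-deleted minus Id-intact the median was 0.28, beside 0.005 over all tested genes (0.16 without pTαKO), and 2 were higher without overlap, against 6.94% of all tested genes. They were Crebbp, an acetyltransferase that E proteins recruit (0.28 ± 0.17), and Ldb1, an adaptor that joins LMO proteins and basic helix-loop-helix factors (0.20 ± 0.13). In LP minus L-DKO, 4 cofactors were higher and 4 lower without overlap, against 22.3% of all tested genes higher and 22.2% lower, with a median of -0.02 (0.074 without LP replicate 2). The LMO protein gene Lmo4 had the largest difference of the 13, with levels of 4.85 and 4.49 in LP mice, 6.15 and 6.22 in L-DKO mice, 4.67 in pTαKO and 5.34 in WT (LP minus L-DKO -1.51 ± 0.19, limma adjusted p = 0.17). Ep300 (-0.34 ± 0.19), Gfi1 (-0.28 ± 0.16) and Tcf7 (-0.19 ± 0.19) were the other 3 that were lower. Gfi1b (1.09 ± 0.47), Lmo2 (0.87 ± 0.47), Lef1 (0.52 ± 0.19) and Kat2a (0.21 ± 0.24) were higher. For Tcf7 and Kat2a the SE was as large as the difference. Ep300 came to -0.19 without LP replicate 1, Gfi1 to -0.14 without L-DKO replicate 1, Tcf7 to -0.09 without L-DKO replicate 2, Gfi1b to 0.68 and Kat2a to 0.11 without LP replicate 2, and Lmo2 to 0.53 without L-DKO replicate 1.

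Of genes for the turnover of Id and E proteins, 9 of 11 were tested and limma called 0. At an unadjusted p under 0.05 there were 0 in Id-deleted minus Id-intact and 0 in LP minus L-DKO, against 6.49% and 11.1% of all tested genes. Usp1, a deubiquitinase that stabilises Id proteins, stood at 6.48 and 6.74 in LP mice and 6.51 and 5.99 in L-DKO mice, against 6.77 in pTαKO and 6.97 in WT. It was lower in all Id-deleted libraries (-0.44 ± 0.19, limma adjusted p = 0.80), while the ubiquitin ligase gene Huwe1 was higher in all of them (0.28 ± 0.15, adjusted p = 0.82, with 0.14 without WT and 0.42 without pTαKO). Of all tested genes, 5.87% were lower and 6.94% higher in this way. Skp2, part of the ligase that degrades E2A, was lower in LP than in L-DKO without overlap (-0.67 ± 0.29, limma adjusted p = 0.50), as were 22.2% of all tested genes. The median of the 9 was -0.02 for both Id-deleted minus Id-intact (0.14 without WT) and LP minus L-DKO (0.077 without LP replicate 2).

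Genes described as targets of E proteins in thymocytes were read last. Of 34 listed genes, 27 were tested, and the list includes genes that the study named from these same libraries (Zbtb16, Gzma and Il2rb), so it is not independent evidence of a direction. No expected direction was set for any listed gene, whether raised or lowered by E proteins. The medians and counts of this list, here and below, are therefore no measure of E protein activity. For Id-deleted minus Id-intact, 0 were called in limma, and 6 had an unadjusted p under 0.05, against 6.49% of all tested genes. The median was 0.05, beside 0.005 over all tested genes (0.12 without pTαKO and -0.02 after rescaling without the 20 most abundant entries). Without overlap, 4 were higher and 2 lower, against 6.94% and 5.87% of all tested genes. The 4 were Klf2, a factor of mature thymocytes, with levels of 3.56 and 3.37 in LP mice and 1.79 and 1.95 in L-DKO mice, against 0.86 in pTαKO and 1.64 in WT (1.42 ± 0.30, limma adjusted p = 0.49), Zbtb16 (PLZF), the master factor of NKT cells (1.27 ± 0.43), the chemokine receptor Ccr7 (1.05 ± 0.29) and the cytokine signalling inhibitor Socs1 (0.24 ± 0.13). Zbtb16 stood at 1.74 and 2.44 in LP mice and 0.69 and 0.29 in L-DKO mice, against 0.02 in pTαKO and 0.03 in WT. The 2 lower ones were Themis, a TCR signalling protein (-0.30 ± 0.12), and Dntt, the terminal transferase of DP cells (-0.14 ± 0.13).

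In LP minus L-DKO, 15 of the 27 targets were higher and 8 lower without overlap, against 22.3% and 22.2% of all tested genes. In limma 0 were called, and 13 had an unadjusted p under 0.05, against 11.1% of all tested genes. The median was 0.25, beside 0.001 over all tested genes, but 0.13 without L-DKO replicate 1 and -0.06 among targets with a mean of at least 5 FPKM. The higher ones included the Notch target Hes1 (2.61 ± 0.49), Notch1 (2.38 ± 0.38), the IL-2 receptor chain Il2rb (1.73 ± 0.46), the kinase gene Blk (1.68 ± 0.57), the granzyme gene Gzma (1.62 ± 0.17) and Zbtb16 (1.60 ± 0.49). The lower ones included Cd5 (-1.58 ± 0.17), Ccr9 (-0.57 ± 0.13), the coreceptor Cd4 (-0.31 ± 0.16) and Ptcra (-0.88 ± 0.23). Ptcra is the gene whose product LP mice lack by their label, yet both LP libraries and pTαKO stood above WT in it, so its value here is not read as that of a target. Notch1 had levels of 2.92 and 3.21 in LP mice, 0.85 and 0.53 in L-DKO mice, 3.89 in pTαKO and 0.46 in WT, and so was higher in the 3 libraries labelled as lacking pTα than in the other 3. The same held for Hes1 (3.88 and 3.54 in LP mice, 4.07 in pTαKO) and Blk (2.23 and 3.06 in LP mice, 2.24 in pTαKO). In contrast, Il2rb was lower in pTαKO (0.90) than in both LP libraries (2.23 and 1.66), as were Gzma and Zbtb16. Gzma stood at 7.51 and 7.19 in LP mice, 5.72 and 5.75 in L-DKO mice, 5.95 in pTαKO and 4.66 in WT, and is also 1 of the NK markers whose sum was higher in LP.

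**Figure D5:**
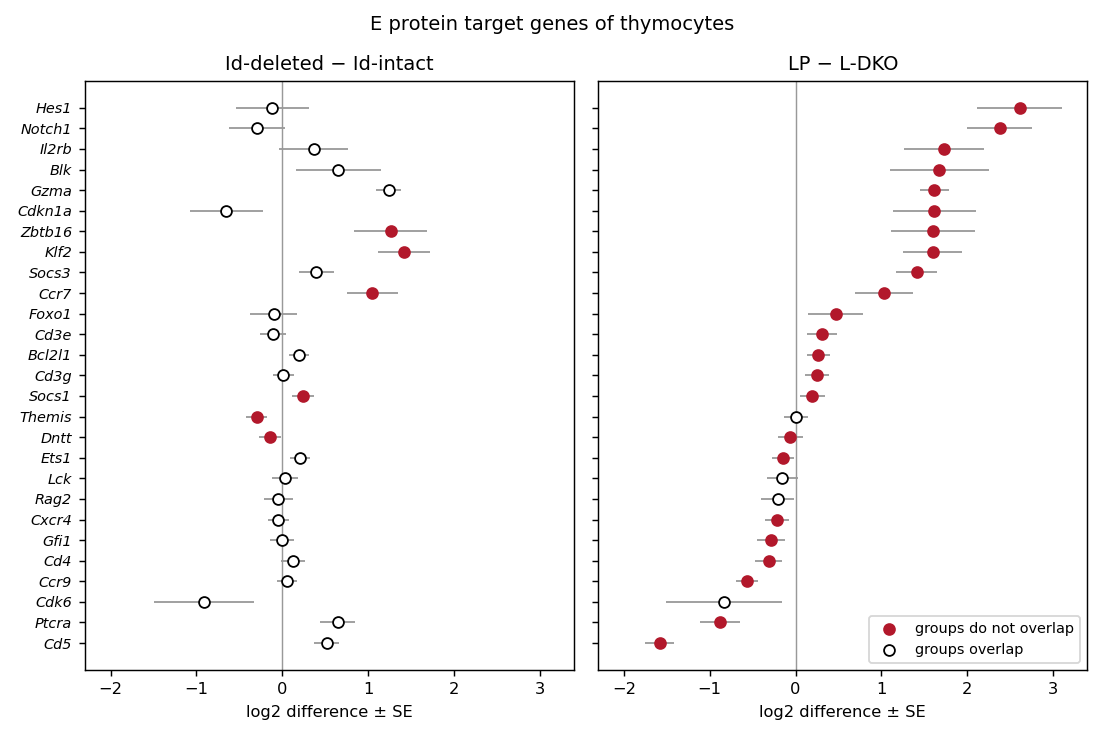
Log2 differences with bars of 1 SE for the 27 tested E protein targets, for Id-deleted minus Id-intact (left) and LP minus L-DKO (right), in the order of the right panel. Filled points are genes whose groups do not overlap, 6 at the left and 23 at the right, and none passed the test.

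Both panels of the plot of E protein targets use the LP and L-DKO libraries, so they are not independent of each other. The markers of γδ T cells, of which 5 of 7 were measured, summed to 37.6 and 55.2 FPKM in LP mice, 21.1 and 23.1 FPKM in L-DKO mice, 40.0 FPKM in pTαKO and 22.9 FPKM in WT. The sort kept TCRγδ- cells, which leaves out cells with this receptor on the surface. The part of γδ T cells in the targets that were higher in LP, such as Blk, which is on both lists, was not tested.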

How the data were processed

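Libraries were made from poly(A) RNA with random hexamers. The deposited values are log2 FPKM per the file headers, and since their minimum is 0 they were taken as log2(FPKM + 1). The submitters' processing notes name Trimmomatic 0.32, TopHat2 2.0.9, Cufflinks 2.2.0 and mm10. A few abundant entries took a large share of a library, but the total of its other FPKM did not fall with that share. Without the 20 entries most abundant on average, the total relative to the mean library was 1.09 in LP replicate 2, which had the largest share (72.6%). It was 0.94 in WT, which had the smallest (30.0%). The authors' filter on genes is not stated, and the lowest maximum of any entry was 1.02 FPKM. Depth is unknown, so no counting intervals are given. The authors' 2 columns of group means and 3 of differences were not used.

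Of 7 labelled samples, 6 had a column. The 13097 entries held 12092 symbols. Where a symbol had several entries (535 symbols), the one with the highest mean was kept, and hyphens were restored in 292 symbols. Genes with a mean of at least 0.5 FPKM (12063) were fitted with 1 mean per genotype over all 6 libraries in limma 3.58.1 (R 4.3.3, eBayes with a trend, 2 residual and 2.88 prior degrees of freedom), with Benjamini-Hochberg adjustment and a threshold of 0.05. The single libraries of pTαKO and WT take the spread of LP and L-DKO in this model. The deviations of same-numbered LP and L-DKO libraries correlated at 0.035 over genes. With so few libraries this cannot show whether the numbers pair samples. The main model did not pair them, and a replicate block was run as an alternative. No overlap means that all libraries of one group lie beyond all of the other.

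The 4 genes and the lists were chosen with earlier results of these data known, and the neighbouring genes after the data were seen. Genes named from a list are those without overlap, up to 4 in each direction, and those the study names, and 1 gene of the lists is not reported here. Coordinates and promoters are from RefSeq tables of GRCm38.p6. Alternatives were another pseudocount, other filters and scalings, no variance trend, only the groups compared, summed entries, a replicate block and leaving out each library.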

Additional observations from a re-analysis of the deposited data

Results flagged for a closer look

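Tcf3 and Tcf4 each lay on opposite sides of the control with and without pTα. For Tcf3, both LP libraries were above pTαKO and both L-DKO libraries below WT, and the difference between these differences was 0.60 ± 0.23 (limma adjusted p = 0.996). For Tcf4, both LP libraries were below pTαKO and both L-DKO libraries above WT, and it was -1.55 ± 0.42 (adjusted p = 0.996). Neither passed the test of the interaction. Such a pattern occurred in 19.9% of all tested genes, and pTαKO and WT are 1 library each.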

How the results depend on the processing

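The log2 ratio of E protein to Id transcripts differed by 2.93 between Id-deleted and Id-intact libraries, by 2.90 to 3.11 under 4 other choices (0.1 FPKM added, Id3 alone, Tcf3 alone, summed entries) and by 2.41 to 3.46 when each library was left out in turn. Ratios with Id1 and Tcf12 were not run, since these genes were not analysed here. The differences of the 4 genes were recomputed 291 times. None passed the threshold, and the lowest adjusted p in limma was 0.0905, for Id3 in Id-deleted against Id-intact libraries with a replicate block. Of the 291, 6 changed sign, each when a library was left out. Over the libraries left out in turn, Tcf3 ranged from -0.17 (without pTαKO) to 0.036 (without WT) and Tcf4 from -0.35 (without WT) to 0.56 (without pTαKO) in Id-deleted against Id-intact libraries, where Tcf4 was also -0.03 without L-DKO replicate 2. Likewise, Id2 ranged from -0.87 (without LP replicate 1) to 0.055 (without LP replicate 2) in LP against pTαKO, and Id3 from -0.75 (without L-DKO replicate 1) to 0.66 (without L-DKO replicate 2) in LP against L-DKO, where it was also 0.56 without LP replicate 1. For 33 differences of named list genes, 510 recomputed values gave 0 changes of sign and 0 past the threshold, but 15 of the 33 moved by over 1.5 times under at least 1 alternative, 9 of them when a library was left out. With 0.1 FPKM added, Zbtb16 came to 3.42 in Id-deleted against Id-intact libraries and to 2.79 in LP against L-DKO, where Il2rb came to 3.64 and Lmo2 to 2.23. The number of genes called over the whole table was less stable. With a replicate block it was 18 for Id-deleted against Id-intact, 10 for L-DKO against WT and 14 for the interaction, against 10, 5 and 6 without it. After rescaling without the 20 most abundant entries it was 22 for Id-deleted against Id-intact, 14 for LP against L-DKO and 13 for the interaction. Without a variance trend it was 5 for Id-deleted against Id-intact, 0 for L-DKO against WT and 1 for LP against L-DKO. With summed entries it was 3 for L-DKO against WT and 7 for LP against pTαKO (12 in the main analysis). With only the groups compared it was 14 for L-DKO against WT. For LP against L-DKO (2 in the main analysis) it was 4 with a mean of at least 5 FPKM and 4 with quantile normalization. Leaving out each library gave 7 to 21 for Id-deleted against Id-intact, 0 to 13 for L-DKO against WT, 12 to 18 for LP against pTαKO, 2 to 12 for LP against L-DKO and 4 to 15 for the interaction. The causes of these moves were not tested. In Id-deleted against Id-intact libraries the list medians ranged under the alternatives from 0.16 to 0.33 for cofactors, -0.07 to 0.22 for inducers, -0.09 to 0.14 for turnover and -0.02 to 0.12 for targets. In LP against L-DKO they ranged from -0.09 to 0.074 for cofactors, -0.21 to 0.23 for inducers, -0.12 to 0.077 for turnover and -0.06 to 0.31 for targets. Thus 7 of these 8 medians changed sign under some alternative. The single libraries of pTαKO and WT and the unknown depth limit every comparison with Id-intact cells.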
